A study of Mus musculus with 18 samples.

Results

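The semaphorins, plexins and neuropilins were taken as every gene symbol of the deposited expression table that belongs to semaphorin classes 3 to 7, plexin classes A to D or the neuropilins. The pattern found 31 of the 23228 genes listed: 20 semaphorin ligands, 9 plexins and 2 neuropilins. Expression was measured by RNA sequencing in 2 samples of ICR mouse embryos whose genotype is labelled WT. The sample from the neural tube, at embryonic day 12.5 (E12.5), held GFP-positive cells sorted after trypsin dissociation from embryos with the 2.3Ptf1a-GFP transgene. In that transgene a 2.3 kb autoregulatory enhancer of Ptf1a, with a beta-globin basal promoter, drives GFP, so the cells were selected through this enhancer. The other sample was whole, unsorted pancreas at E15.5. Per the labels each sample named 2 libraries, but 1 value per gene and tissue was given, so each value is read as the authors' pooled value and there is no SD, no test and no replicate check for any difference below. The series also has 16 chromatin samples, not analysed here.

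Semaphorins are guidance cues that share an extracellular Sema domain. Class 3 semaphorins are secreted, classes 4, 5 and 6 span the membrane, and class 7 is held on the membrane by a lipid anchor. Plexins are the signalling receptors, and their intracellular part acts on small GTPases, among them those of the Ras and Rap families. Most class 3 semaphorins cannot engage a class A plexin without a neuropilin, which binds the ligand and also serves as a co-receptor for vascular endothelial growth factor (VEGF), whereas class 6 semaphorins bind class A plexins directly. In the developing spinal cord these cues steer and sort axons, and in other organs they also act on vessels, nerves and epithelial branching.

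The sorted cells carried the genes of neurons and neural progenitors, and whole pancreas carried those of epithelium, endocrine cells, mesenchyme, vessels and macrophages. Summed over the 5 of 6 fixed neuron markers found in the table, the level was 1292 FPKM (fragments per kilobase of transcript and per unit of library depth) in neural tube and 25.5 in pancreas. For 5 markers of inhibitory dorsal interneurons the sums were 357 FPKM in neural tube against 0.902 in pancreas. For 5 acinar markers the sums were 0.210 FPKM in neural tube against 26851 FPKM in pancreas. Markers of neural progenitors summed to 449 FPKM in neural tube against 27.2 in pancreas, and those of pancreatic epithelium to 7.07 against 844. Endocrine markers summed to 16.1 FPKM in neural tube, of which Chga was 15.4, against 2177 in pancreas. The summed markers of cells that could be carried along were 12.6 FPKM in neural tube against 83.7 in pancreas for 6 endothelial genes. They were 39.7 FPKM in neural tube against 1232 in pancreas for 7 mesenchyme genes, and 6.74 FPKM in neural tube against 223.6 in pancreas for 6 macrophage genes. For 5 Schwann and neural crest genes they were 5.73 FPKM in neural tube against 19.3 in pancreas. Of these 5, Sox10 was higher in neural tube, at 3.31 FPKM against 2.05 in pancreas, and the other 4 were lower. No marker of these last 4 lists was listed at 0 in either sample. In bulk samples, fewer cells of a type and less RNA per cell cannot be told apart, and this holds for every difference given here.

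Most of the family stood higher in the sorted neural tube cells, with class A plexins and class 6 semaphorins in front, while 5 of the 7 class 3 semaphorins and the vascular receptor Plxnd1 had higher values in pancreas, of which only Sema3c passed the rule of size defined next. A gene was called higher in a sample when log2(FPKM + 1) differed by at least 2, that is 4 times on that scale, and the higher value was at least 5 FPKM. This is a rule of size and not a test, and the scale understates differences of low genes. By it 9 of the 31 members were higher in neural tube, against 4.76% of all genes listed, and 1 was higher in pancreas, against 5.50% of all genes. With the samples rescaled to equal upper quartiles the split was 9 and 3, against 4.44% and 5.94% of all genes listed. At 5 FPKM or more in either sample there were 22 members, and of all 10744 genes at that level 10.3% were called higher in neural tube and 11.9% in pancreas. The median difference of log2(FPKM + 1), neural tube minus pancreas, was 0.51 over all 31 members and 0 over all genes. None of the 31 members was listed at 0 in either sample.

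**Figure D1:**
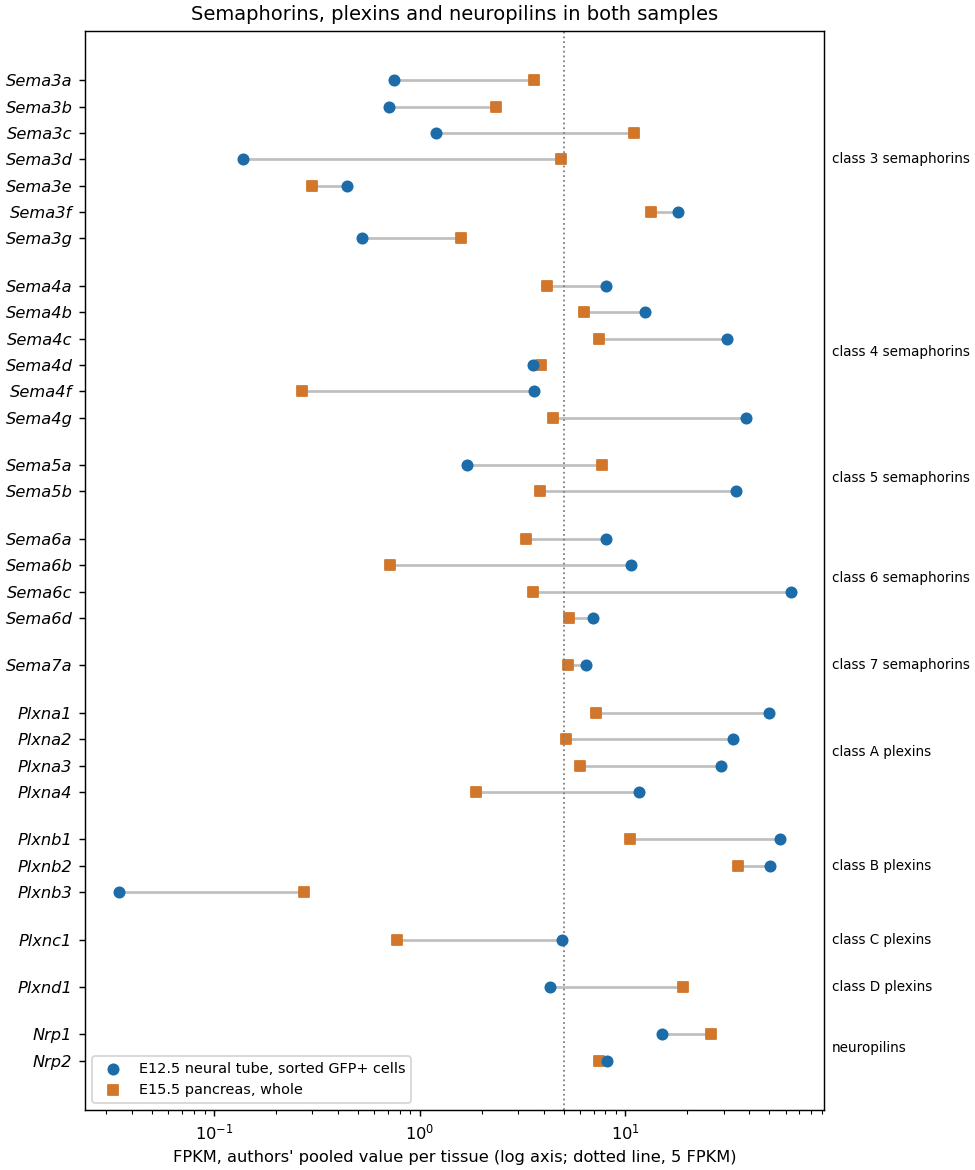
Level of each of the 31 members in FPKM on a log axis, grouped by class, with circles for the sorted E12.5 neural tube cells and squares for whole E15.5 pancreas, 1 pooled value each. The circles of the class A plexins lie between 11.6 and 50.1 FPKM, right of all 4 squares, whereas 5 of the 7 class 3 semaphorins have the circle on the left.

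Summed ligand and receptor levels were of like size in each sample. Both sums were higher in neural tube, that of the ligands by the larger ratio, while the median difference was larger for receptors. The 20 ligands summed to 251 FPKM in neural tube against 93.1 FPKM in pancreas, and the 11 receptors to 263 FPKM in neural tube against 119.8 in pancreas. Ligand over receptor level was therefore 0.953 in neural tube and 0.777 in pancreas, a ratio within each sample that rescaling cannot move. The median difference in log2(FPKM + 1) was 0.37 for ligands and 1.74 for receptors. Of the ligands, 4 were called higher in neural tube and 1 in pancreas. Of the receptors, 5 were called higher in neural tube and 0 in pancreas, with Plxnd1 just short of the rule at -1.92.

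Promoter windows are shown for the ligand and the receptor with the largest differences toward neural tube for which a window was held, Sema6c and Plxna2, and for the ligands with the largest differences toward pancreas, Sema3c and Sema3d. They run from 250 bases before to 50 bases after a RefSeq transcript start (RefSeq, GRCm38.p6). Each of them matched NCBIM37, the same build as mm9, at 1 place on its chromosome, and coordinates are of that build. All 4 are on the plus strand and are written 5′ to 3′. Capitals mark CANNTG, the E-box to which basic helix-loop-helix factors such as Ptf1a bind with a partner. For Sema6c the first of 2 annotated starts is shown, and the other differs in these letters, as given after the sequences.
Sema6c, chr3:94964092-94964391: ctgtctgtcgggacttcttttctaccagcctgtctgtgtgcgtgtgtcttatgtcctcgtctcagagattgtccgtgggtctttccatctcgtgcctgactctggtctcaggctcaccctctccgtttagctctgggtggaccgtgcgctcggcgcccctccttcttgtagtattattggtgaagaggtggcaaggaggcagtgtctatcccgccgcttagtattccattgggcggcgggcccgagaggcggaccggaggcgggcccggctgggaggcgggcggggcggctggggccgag
Plxna2, chr1:196445773-196446072: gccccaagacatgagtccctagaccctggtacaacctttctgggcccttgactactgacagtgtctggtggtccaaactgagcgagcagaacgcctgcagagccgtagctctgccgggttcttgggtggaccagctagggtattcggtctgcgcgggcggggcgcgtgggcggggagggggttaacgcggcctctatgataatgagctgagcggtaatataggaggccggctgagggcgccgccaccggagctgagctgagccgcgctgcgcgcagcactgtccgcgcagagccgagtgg
Sema3c, chr5:17080384-17080683: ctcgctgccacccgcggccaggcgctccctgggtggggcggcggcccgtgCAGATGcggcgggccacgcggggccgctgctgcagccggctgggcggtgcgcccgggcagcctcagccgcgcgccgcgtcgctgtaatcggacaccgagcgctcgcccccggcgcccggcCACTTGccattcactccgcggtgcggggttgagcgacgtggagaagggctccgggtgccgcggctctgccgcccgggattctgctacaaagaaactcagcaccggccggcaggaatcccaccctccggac
Sema3d, chr5:12382916-12383215: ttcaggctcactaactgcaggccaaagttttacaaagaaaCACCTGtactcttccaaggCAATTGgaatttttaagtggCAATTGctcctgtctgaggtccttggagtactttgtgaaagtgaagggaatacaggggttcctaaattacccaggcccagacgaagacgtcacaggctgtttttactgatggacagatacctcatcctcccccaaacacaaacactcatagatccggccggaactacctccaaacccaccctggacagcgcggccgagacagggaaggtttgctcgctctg

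The windows shown for Sema6c and Plxna2 hold 0 such E-boxes, that of Sema3c holds 2 and that of Sema3d holds 3. The window at the other Sema6c start, chr3:94968011-94968310, holds 3 E-boxes, 1 of them CAGCTG, and 3 CpG pairs, so the count for Sema6c depends on the start. Windows were held for 26 of the 31 members, 37 in all, and 21 of them (56.8%) had at least 1 CANNTG on either strand, against 68.9% of the 19022 windows of genes in the table. All 5 class 3 windows, from 5 of the 7 genes, had 2 or 3, and both class A plexin windows, from 2 of the 4 genes, had 0. The median over all windows was 1, and the share of all windows with 2 or more was not computed. Among these class 3 windows is that of Sema3e, with 2, whose difference was 0.15 toward neural tube. The Sema3a window lies 271191 bases from the annotated start of its gene. Both class 5 windows had 0, as had those of Plxnd1 and Nrp1, which had higher values in pancreas. The Sema4f window had 3, with a difference of 1.86 toward neural tube. Windows of class 4 and of class 6 ran from 0 to 3. The letters CAGCTG, which are a form of CANNTG, were in 16.2% of member windows against 16.1% of all. The letters TGGGAA, searched as a part of sites bound by Rbpj, were in 21.6% against 24.3%. CpG pairs numbered 23 in the Sema6c window shown, 25 in that of Plxna2, 42 in that of Sema3c and 8 in that of Sema3d, with a median of 14 over all windows. A match is a description of letters only.

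Among the secreted class 3 semaphorins most were lower in neural tube, and Sema3f was the exception in level. Sema3c, which signals through both neuropilins and through Plxnd1, was at 1.20 FPKM in neural tube against 11.0 FPKM in pancreas, 9.19 times as high in pancreas. It was the 1 member called higher in pancreas, with a difference of -2.45. Sema3d was at 0.138 FPKM in neural tube against 4.88 FPKM in pancreas, a difference of -2.37 that missed the call because neither value reached 5 FPKM. Sema3a, the best known axon repellent of the class, was at 0.748 FPKM in neural tube against 3.58 FPKM in pancreas. Sema3b was at 0.710 FPKM in neural tube against 2.35 in pancreas, and Sema3g, a ligand of Nrp2, at 0.526 FPKM in neural tube against 1.59 in pancreas. These 5 ligands were lower in neural tube, and the settings tried could not have changed that. A pseudocount cannot change a sign, and the rescalings added at most 0.48 to a log2 ratio.

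Sema3f, the ligand preferred by Nrp2, was at 18.0 FPKM in neural tube against 13.3 FPKM in pancreas, and was the highest class 3 semaphorin in both samples. Its level was 15.0 times that of Sema3c in neural tube and 1.21 times in pancreas. Sema3e, which binds Plxnd1 without a neuropilin, was low in both samples, at 0.441 FPKM in neural tube against 0.299 in pancreas. The median difference of the class was -0.97, against 1.08 for the 13 ligands of classes 4 to 7. As background on position, Sema3d, Sema3a, Sema3e and Sema3c follow each other on chromosome 5 from 12383166 to 17236086, and Sema3b and Sema3f lie 72.3 kb apart on chromosome 9 (mm9).

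Class 4 semaphorins were mostly higher in neural tube. Sema4g (chromosome 19, 45063591 to 45077887) had 38.4 FPKM in neural tube against 4.42 FPKM in pancreas, a difference of 2.86 that passed the rule. Sema4c, a ligand of Plxnb2, was at 31.2 FPKM in neural tube against 7.45 in pancreas and stayed just outside it at 1.93, although the ratio of the deposited values was 4.19. The ratio of Sema4f was larger, 3.60 FPKM in neural tube against 0.267 in pancreas or 13.5 times, but at levels too low for a call. Sema4b was at 12.5 FPKM in neural tube against 6.29 in pancreas and Sema4a, studied mainly in the retina and in T cells, at 8.07 FPKM in neural tube against 4.17 in pancreas. Sema4d, the ligand of Plxnb1 also known as CD100, was nearly level at 3.56 FPKM in neural tube against 3.87 in pancreas, and its difference of -0.10 turned to 0.28 with housekeeping rescaling and to 0.19 without the 50 highest genes of each sample. The other 5 of the 6 had positive differences. The largest shift toward pancreas by a rescaling, -0.11 in log2 ratio, was too small to turn them.

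The class 5 pair went opposite ways. Sema5a and Sema5b carry thrombospondin repeats outside the cell. Sema5b (chromosome 16, 35541231 to 35664818) had 34.6 FPKM in neural tube against 3.82 FPKM in pancreas and was called, with a difference of 2.89. Sema5a was at 1.71 FPKM in neural tube against 7.69 FPKM in pancreas, a difference of -1.68. In neural tube Sema5b was therefore the third highest semaphorin, whereas in pancreas Sema5a stood above it.

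Class 6 semaphorins held the largest difference of the family. Sema6c (chromosome 3, 94964379 to 94977946) had 63.6 FPKM in neural tube against 3.56 FPKM in pancreas, 17.9 times as high, with a difference of 3.83. It was the highest of all 31 members in neural tube and made up 25.3% of the summed ligand level there, against 3.82% in pancreas. Sema6b, a ligand of Plxna4, was at 10.6 FPKM in neural tube against 0.719 in pancreas and also passed the rule at 2.75. Sema6a, which binds Plxna2 and Plxna4, was at 8.09 FPKM in neural tube against 3.30 in pancreas. Sema6d, a ligand of Plxna1, was at 6.93 FPKM in neural tube against 5.31 in pancreas, so that in pancreas it was the highest of its class. Sema7a, the lipid-anchored member that binds Plxnc1 and integrins, was at 6.41 FPKM in neural tube against 5.25 in pancreas.

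The makeup of the ligand pool differed between the samples in a way that no rescaling can alter. Class 3 took 8.65% of the summed semaphorin FPKM in neural tube and 39.7% in pancreas. Sema3f carried most of the class 3 level in neural tube, and without it the class 3 shares were 1.61% in neural tube and 29.7% in pancreas. Class 6 took 35.5% in neural tube and 13.8% in pancreas, and class 4 took 38.8% in neural tube and 28.4% in pancreas. Class 5 took 14.5% in neural tube and 12.4% in pancreas. Summed mesenchyme and endothelial markers, given above, were also higher in pancreas, and their part in the class 3 levels was not tested.

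**Figure D2:**
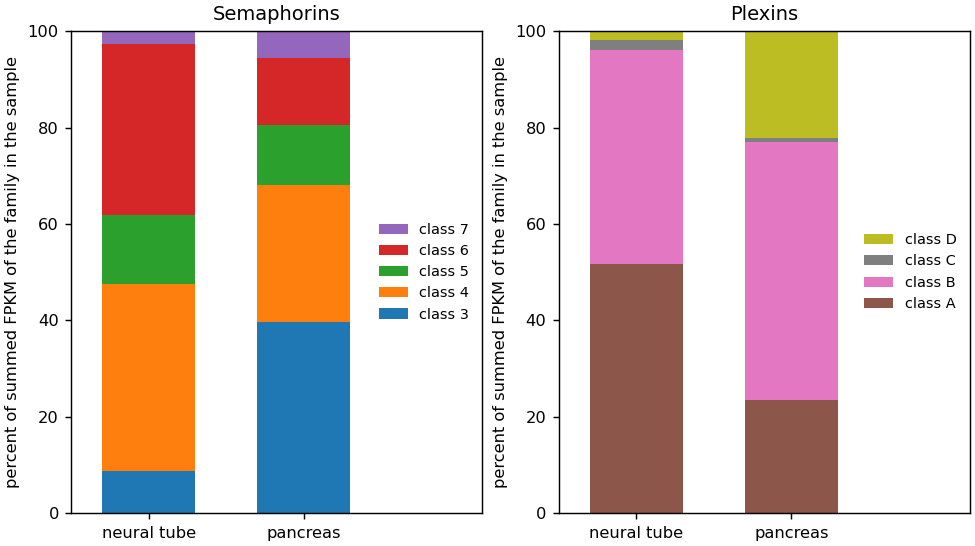
Share of the summed FPKM of all semaphorins (left panel) and of all plexins (right panel) held by each class, in percent, with the neural tube sample left of pancreas. Class 3 takes 8.65% of semaphorin FPKM in neural tube and 39.7% in pancreas, and class D takes 1.79% of plexin FPKM in neural tube and 22.1% in pancreas.

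All 4 class A plexins, the receptors that pair with neuropilins and also bind class 6 semaphorins, were called higher in neural tube, although with a pseudocount of 5 FPKM only Plxna1 kept the call, Plxna2 being at 1.92, Plxna3 at 1.63 and Plxna4 at 1.27. Plxna1 (chromosome 6, 89266310 to 89312607) had 50.1 FPKM in neural tube against 7.17 FPKM in pancreas. Plxna2 (chromosome 1, 196446023 to 196643063) had 33.3 FPKM in neural tube against 5.16 in pancreas. Plxna3 (chromosome X, 71574405 to 71590028), a receptor for Sema3f with Nrp2, was at 29.1 FPKM in neural tube against 6.002 in pancreas. Plxna4 (chromosome 6, 32094565 to 32538192) was the lowest of the 4 at 11.6 FPKM in neural tube against 1.89 in pancreas. Their differences ran from 2.10 for Plxna3 to 2.64 for Plxna1, and Plxna3 and Plxna4 at 2.13 were the members just inside the rule. Within each sample the order of Plxna1 as highest and Plxna4 as lowest was shared, while Plxna2 and Plxna3 changed places. The order in pancreas spans small differences that have no replicate error.

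Class B plexins did not behave alike. Plxnb1 (chromosome 9, 108997950 to 109022425), the receptor of Sema4d, was at 56.2 FPKM in neural tube against 10.6 FPKM in pancreas and was called at 2.31. Plxnb2, the receptor of Sema4c, was high in both samples, at 50.7 FPKM in neural tube against 35.4 in pancreas, and was the highest of all 31 members in pancreas. Plxnb3 was at 0.0344 FPKM in neural tube against 0.274 FPKM in pancreas, the lowest receptor in both, and the neural tube value rests on about 5.01 fragments. Plxnc1, the receptor of Sema7a, was at 4.91 FPKM in neural tube against 0.772 in pancreas, a difference of 1.74 that did not pass the rule.

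Plxnd1, a receptor best known from vessels, was the plexin that stood higher in pancreas among those above 1 FPKM in both samples. It was at 4.29 FPKM in neural tube against 19.0 FPKM in pancreas, 4.44 times as high, yet at -1.92 just outside the rule, and it passed with upper quartile rescaling at -2.02 and with a pseudocount of 0.1 FPKM at -2.12. Plexin makeup followed these levels, with class A at 51.7% of plexin FPKM in neural tube and 23.4% in pancreas, and class D at 1.79% in neural tube and 22.1% in pancreas. Pecam1, an endothelial adhesion gene, was at 1.39 FPKM in neural tube against 24.3 FPKM in pancreas, so Plxnd1 over Pecam1 was 3.09 in neural tube and 0.785 in pancreas. This ratio depends on the marker, since Pecam1 had the largest difference of the 6 endothelial markers, at -3.40. The smallest was that of Cldn5, -0.49, with 5.23 FPKM in neural tube against 7.73 in pancreas, a smaller difference than that of Plxnd1. The part of endothelial cells in the Plxnd1 level was not tested.

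The neuropilins were close to level between samples. Nrp1, which binds Sema3a and forms of VEGF-A, was at 15.0 FPKM in neural tube against 26.2 FPKM in pancreas, a difference of -0.76. Nrp2, which prefers Sema3f, was at 8.12 FPKM in neural tube against 7.41 in pancreas, a difference of 0.12. Nrp1 over Nrp2 was 1.85 in neural tube and 3.53 in pancreas. The median of the pair was -0.32 and its sign is not fixed, since it was 0.12 with housekeeping rescaling and 0.010 without the 50 highest genes of each sample. Neuropilins summed to 0.186 of the class A plexin level in neural tube and to 1.66 of it in pancreas. Both were among the 7 of 12 members at 5 FPKM or more in both samples that lay within 2 times of each other, against 65.9% of all genes at that level. The other 5 were Plxnb2, Sema3f, Sema4b, Sema6d and Sema7a.

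**Figure D3:**
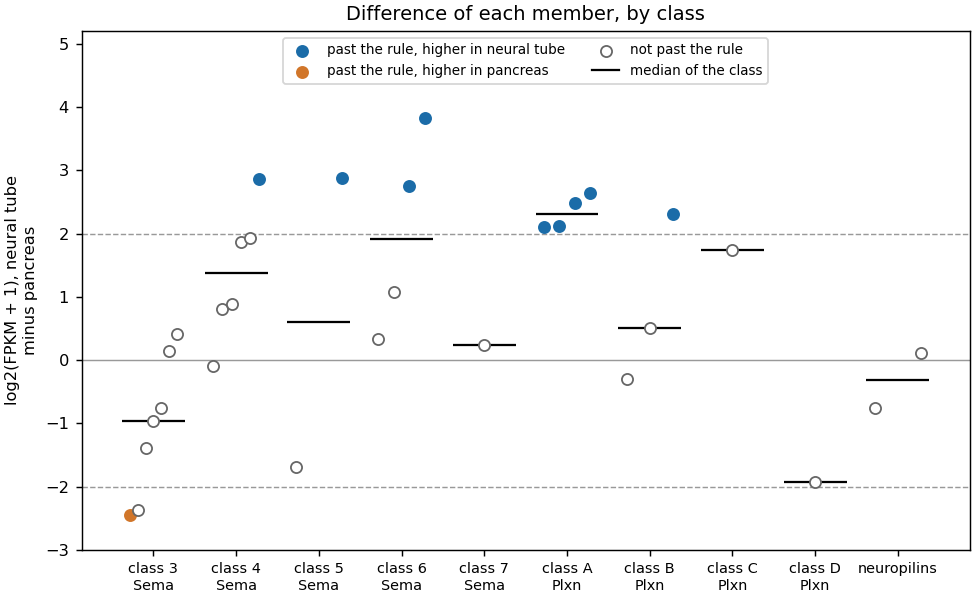
Difference of log2(FPKM + 1), neural tube minus pancreas, for each member by class, with filled points for those past the rule of size, bars for class medians and dashed lines at 2 and -2. Class A plexins lie between 2.10 and 2.64, all above the upper line, and 5 of 7 class 3 semaphorins lie below 0. The neuropilin median of -0.32 turns positive under 2 rescalings.

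Placing known ligand and receptor pairs side by side showed where both partners were present in the same sample. Of 18 textbook pairs, both partners were at 5 FPKM or more for 8 pairs in neural tube and 7 in pancreas, 4 of them in both. The list was chosen by hand and holds no pair for Sema3b, Sema3d, Sema4a, Sema4b, Sema4f, Sema4g or Sema6c. Sema6c and Sema4g, at 63.6 and 38.4 FPKM, were the highest semaphorins in neural tube, so the counts of 8 and 7 do not compare the samples as wholes. Those 4 were Sema3f with Nrp2, Sema3f with Plxna3, Sema4c with Plxnb2, and Sema6d with Plxna1. In neural tube alone the level was reached by Sema5b with Plxna3, Sema6a with Plxna2, Sema6a with Plxna4, and Sema6b with Plxna4. In pancreas alone it was reached by Sema3c with Nrp1, with Nrp2 and with Plxnd1. In Sema6b and Plxna4 both partners were nearly level within neural tube, at 10.6 and 11.6 FPKM, against 0.719 and 1.89 FPKM in pancreas. Sema3a, by contrast, was at 0.748 FPKM beside Nrp1 at 15.0 and Plxna4 at 11.6 in neural tube, against 3.58 beside 26.2 and 1.89 in pancreas. Pairs share members, so these counts are not independent, and a level in a pool of cells does not say that the partners meet.

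**Figure D4:**
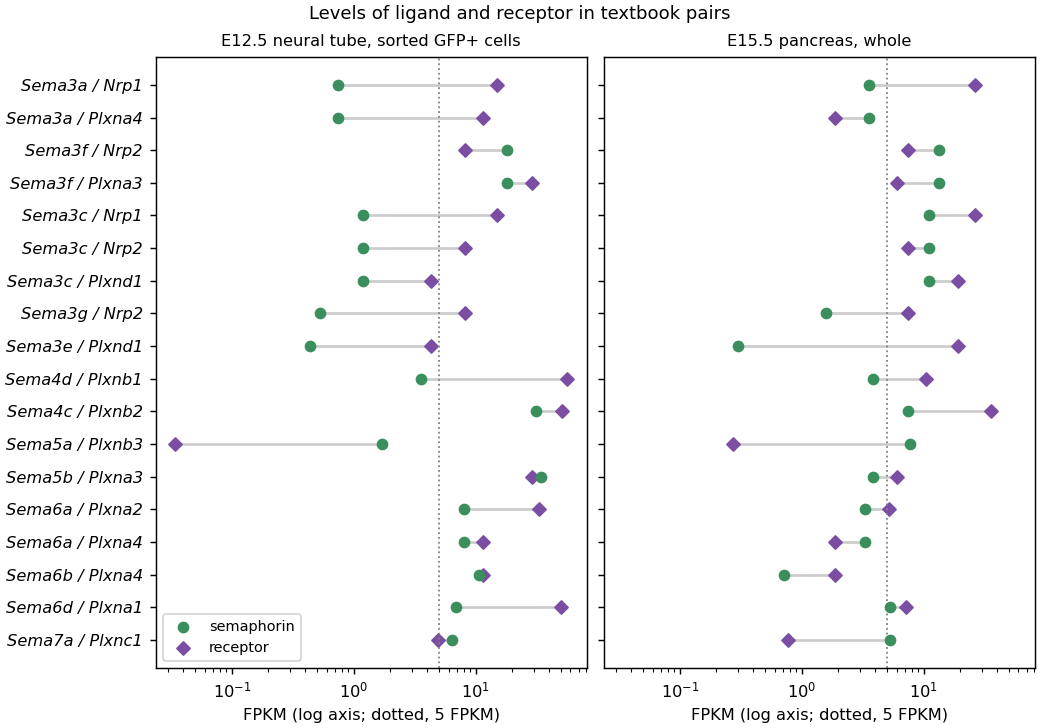
FPKM on a log axis of the semaphorin (circle) and its receptor (diamond) in each of 18 textbook pairs, with neural tube in the left panel and pancreas in the right, and 5 FPKM as a dotted line. Both points lie at or right of the line for 8 pairs in neural tube and 7 in pancreas, and the 3 Sema3c pairs do so in pancreas only among the 2 samples.

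Of the co-receptors and partners of these receptors, 4 adhesion molecules of the immunoglobulin superfamily were called higher in neural tube, while the integrin chain Itgb1 was called higher in pancreas. Cntn2, an axonal adhesion molecule of commissural axons also called TAG-1, was at 94.9 FPKM in neural tube against 0.0977 FPKM in pancreas. L1cam, a co-receptor for Sema3a together with Nrp1, was at 22.7 FPKM in neural tube against 0.881 in pancreas, and its relatives Nrcam at 21.9 FPKM in neural tube against 0.315 in pancreas and Chl1 at 13.2 FPKM in neural tube against 0.669 in pancreas. Itgb1, the integrin beta chain bound by Sema7a, was at 22.6 FPKM in neural tube against 120.5 FPKM in pancreas. Tyrobp, the signalling adaptor that partners Plxna1 complexes in myeloid cells, was at 0.796 FPKM in neural tube against 40.2 in pancreas, and macrophage markers were higher in pancreas as well, whose part in this was not tested. Of 14 co-receptors and partners, 4 were called higher in neural tube and 2 in pancreas, against 4.76% and 5.50% of all genes. The shares were 10.3% and 11.9% of genes with at least 5 FPKM in one sample or the other, which 10 of the 14 had. Housekeeping rescaling left 1 in pancreas, against 4.13% of all genes. This was Tyrobp, with a difference of -4.52 as deposited, while Itgb1, at -2.36, lost its call. Of the list, 7 had positive and 7 negative differences. Their median was -0.07, which turned to 0.29 with housekeeping rescaling and 0.20 without the 50 highest genes of each sample.

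The cytoskeletal effectors showed 10 of 19 genes called higher in neural tube and 1 in pancreas, against 10.3% and 11.9% of all genes with at least 5 FPKM in one sample or the other, which 18 of the 19 had. The median was 2.08. A pseudocount of 5 FPKM gave 7 and 0 calls, against 2.20% and 2.58% of all genes, with a median of 1.253. The collapsin response mediator genes, whose proteins relay semaphorin signals to microtubules, all passed. Crmp1 was at 289 FPKM in neural tube against 3.20 FPKM in pancreas and Dpysl3 at 299 FPKM in neural tube against 13.0 in pancreas. Dpysl4 was at 175 FPKM in neural tube against 2.64 in pancreas, Dpysl5 at 133.8 FPKM in neural tube against 2.46 in pancreas and Dpysl2 at 62.3 FPKM in neural tube against 9.75 in pancreas. The Cdk5 activator Cdk5r1 passed, at 72.2 FPKM in neural tube against 0.761 in pancreas. So did the kinase genes Gsk3b at 46.8 FPKM in neural tube against 10.3 in pancreas, Limk1 at 37.7 FPKM in neural tube against 3.77 in pancreas and Pak1 at 41.2 FPKM in neural tube against 7.73 in pancreas. The other kinase genes of the list did not pass. Their differences were 0.70 for Cdk5, 0.84 for Fyn and 1.03 for Limk2, and -1.20 for Fes, -1.12 for Rock1 and -0.60 for Rock2. The MICAL oxidoreductases, which oxidise and disassemble actin downstream of plexins, went both ways. Mical3 was called higher in neural tube, at 9.47 FPKM there against 1.07 in pancreas. Mical2 was called higher in pancreas, at 0.257 FPKM in neural tube against 6.64 in pancreas. Mical1 did not pass, at 8.56 FPKM in neural tube against 4.18 in pancreas, a difference of 0.88. Cfl1, the actin-severing protein cofilin, was high in both samples, at 809 FPKM in neural tube against 623 in pancreas. Neuron markers were higher in neural tube by 3.50 to 6.51 in log2(FPKM + 1), and their part in these levels was not tested.

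Small GTPases and their regulators went both ways, with 3 of 16 called higher in neural tube and 2 in pancreas, against 10.3% and 11.9% of all genes with at least 5 FPKM in one sample or the other, which 14 of the 16 had. The count in pancreas was 1 with housekeeping rescaling (4.13% of all genes) and with a pseudocount of 5 FPKM (2.58% of all genes). Rnd2 was at 191 FPKM in neural tube against 22.3 FPKM in pancreas and Rnd3 at 87.5 FPKM in neural tube against 17.5 in pancreas, both of the Rnd group that binds plexin tails. Mras was at 13.3 FPKM in neural tube against 2.00 in pancreas. Rap1a, of the Rap family on which plexins act as GTPase activating proteins, was at 13.5 FPKM in neural tube against 93.3 FPKM in pancreas, and Rras2 at 4.84 FPKM in neural tube against 29.4 in pancreas. Cdc42 at 79.5 FPKM in neural tube against 219 in pancreas and Rhoa at 70.1 FPKM in neural tube against 156 in pancreas had the highest mean of both samples in the list and did not pass the rule. The median of the list was -0.73.

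**Figure D5:**
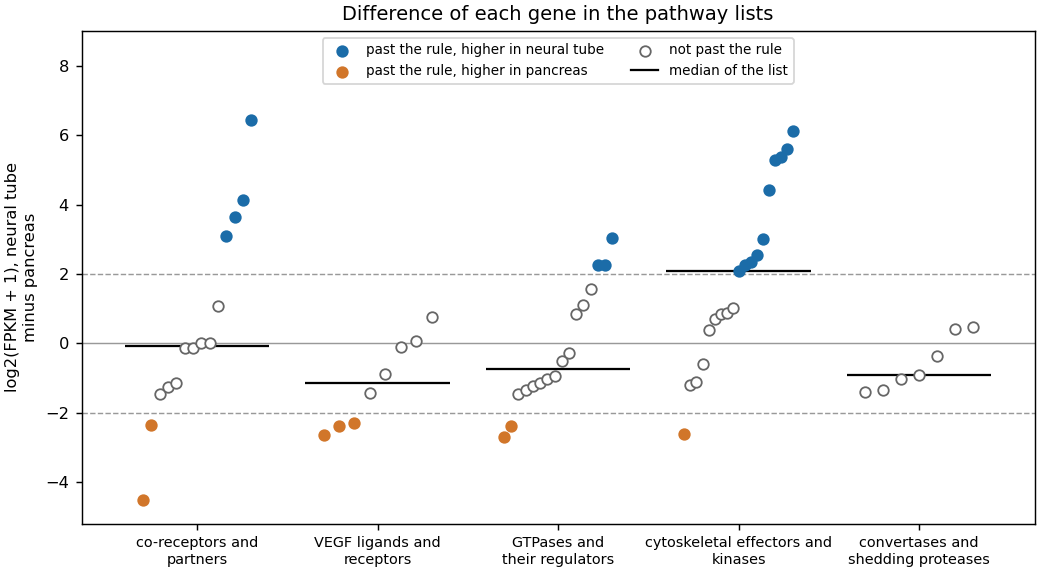
Difference of log2(FPKM + 1), neural tube minus pancreas, for each gene of 5 pathway lists, with filled points past the rule of size, bars for list medians and dashed lines at 2 and -2. In the cytoskeletal list 10 of 19 genes lie above the upper line, and in the VEGF list 3 of 8 lie below the lower line. The co-receptor median of -0.07 turns positive under 2 rescalings.

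The other ligands and receptors that use neuropilins did not follow the plexins. Of 8 VEGF ligands and receptors, 0 were called higher in neural tube and 3 in pancreas, against 4.76% and 5.50% of all genes, with a median of -1.15. The shares were 10.3% and 11.9% of genes with at least 5 FPKM in one sample or the other, which 5 of the 8 had. The count in pancreas was 1 with housekeeping rescaling (4.13% of all genes) and 0 with a pseudocount of 5 FPKM (2.58% of all genes). The median was -2.13 with a pseudocount of 0.1 FPKM and -0.41 with one of 5 FPKM. Kdr, the main signalling receptor of VEGF-A on endothelium, was at 1.36 FPKM in neural tube against 11.3 FPKM in pancreas. Pgf, placental growth factor, was at 0.509 FPKM in neural tube against 6.36 in pancreas, and Figf, the older symbol of VEGF-D, at 0.0904 FPKM in neural tube against 5.81 in pancreas. Vegfa was level at 21.9 FPKM in neural tube against 23.4 in pancreas and Vegfb was at 30.1 FPKM in neural tube against 17.2 in pancreas. Endothelial markers, higher in pancreas, are given above, and their part in the VEGF receptor levels was not tested.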

How the data were processed

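RNA sequencing values of 2 samples were used. The deposited values are FPKM, per the file headers, 1 column per tissue, and were used as the authors gave them. The build was mm9, and Cuffdiff version 2.0.2, TopHat2 version 2.0.4, TopHat and CASAVA were listed, per the submitters' processing notes; their roles and order, the annotation and the use of strand are not given in the sources used. By the protocols in the labels, the sorted cells and the pancreas had different RNA extractions, and both an mRNA-seq and a TruSeq preparation were named for pancreas, so tissue and stage cannot be told apart from sorting, extraction and preparation.

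Differences are log2(FPKM + 1), neural tube minus pancreas, computed with Python 3.11.15, numpy 2.4.6 and pandas 2.3.3. How often the call rule errs in these data was not tested, because there are no replicate values. All members are named. From each pathway list, genes past the rule and the 2 highest by mean FPKM are named. The other kinase genes and Mical1 of the cytoskeletal list and all convertases and shedding proteases are named as well. The members, lists, pairs and rule were chosen with earlier results of these data known. Protein sequences were not used here. Coordinates come from GENCODE M1 (NCBIM37), in which all 31 members were found. A gene on the other strand overlaps 7 of them (Plxna1, Plxna4, Plxnb1, Sema3e, Sema4d, Sema5b and Sema6d), whose reads cannot be told apart without strand, and a same-strand small RNA or other gene overlaps Nrp1 and Plxnc1.

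Depth is not given as counts. From the commonest small value of FPKM multiplied by length among genes with 1 annotated transcript, 1 fragment at 1 kb was worth about 0.0427 FPKM in neural tube against 0.0245 FPKM in pancreas, a depth 1.74 times greater in pancreas. At the longest annotated transcript, members then held about 5.01 to 11318 fragments in neural tube and 44.4 to 9369 in pancreas, with 5 and 3 members under 100. These are approximate, and no interval is given.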

Additional observations from a re-analysis of the deposited data

How the results depend on the processing

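The settings varied were the pseudocount (0.1 and 5 FPKM), no minimum or 10 FPKM for a call, medians over genes at 1 FPKM or more in the mean, 4 rescalings and thresholds of 2 and 8 times. A pseudocount, a minimum or a threshold cannot change the sign of a difference. The 4 rescalings shifted log2 ratios by -0.11 to 0.48, too little to turn any of the 10 called members. Their kept sign is therefore no check of the calls. Of the 21 others, 20 kept their sign under the rescalings, Sema4d being the exception. The count of members higher in neural tube was 9 as reported, against 4.76% of all genes. It was 4 with a pseudocount of 5 FPKM (Sema4g, Sema5b, Sema6c and Plxna1), against 2.20%, and 1 (Sema6c) at 8 times, against 2.35%. In the other alternatives it was 9 to 11, against shares from 4.09% with a minimum of 10 FPKM to 10.7% at 2 times. The count higher in pancreas was 1 as reported, against 5.50% of all genes. It was 3 with a pseudocount of 0.1 FPKM (6.30% of all genes), with upper quartile rescaling (5.94%) and at 2 times (11.6%). It was 2 without a minimum (6.06% of all genes), and 0 with a pseudocount of 5 FPKM (2.58%) and at 8 times (2.81%). A pseudocount of 5 FPKM brought the median differences to 0.78 for receptors, -0.36 for class 3, 0.67 for class 4 and 1.05 for class 6 semaphorins, since it shrinks the differences of low genes, and one of 0.1 FPKM brought class 3 to -1.59. The class B plexin median was 1.41 without Plxnb3, which falls below the mean filter. The neuropilin median of -0.32 was 0.12 with housekeeping rescaling and 0.010 without the 50 highest genes of each sample; the same 2 rescalings turned the co-receptor median of -0.07 to 0.29 and 0.20. The class 3 share in neural tube, 8.65%, was 1.61% without Sema3f and 11.6% without Sema6c, alternatives chosen after seeing the data.

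Housekeeping rescaling added 0.48 to every log2 ratio, leaving out the 50 highest genes added 0.36, and upper quartile rescaling added -0.11. Over all genes the calls were 1106 toward neural tube and 1278 toward pancreas as deposited, 1586 and 960 with housekeeping rescaling and 1469 and 1030 without the 50 highest genes. Without replicate values no sample could be left out. No paired analysis was possible because the table held 1 value per tissue. Depth limits Plxnb3 and Sema3d in neural tube, at about 5.01 and 21.1 fragments.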

Other observations

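The enzymes that cut semaphorins or release them from the membrane did not pass the rule of size. Of 7 convertases and shedding proteases 0 were called in either direction, with a median difference of -0.92. Of all genes with at least 5 FPKM in one sample or the other, which 6 of the 7 had, 10.3% were called higher in neural tube and 11.9% in pancreas. At these shares a list of 7 is too short for 0 calls to set it apart. Furin, the convertase that processes class 3 semaphorins, was at 7.67 FPKM in neural tube against 10.1 FPKM in pancreas. Pcsk6 was at 5.19 FPKM in neural tube against 3.47 in pancreas, Pcsk7 at 9.33 FPKM in neural tube against 6.80 in pancreas and Pcsk5 at 0.583 FPKM in neural tube against 2.999 in pancreas. The sheddases Adam10, at 26.1 FPKM in neural tube against 54.0 in pancreas, and Adam17, at 9.18 FPKM in neural tube against 18.3 in pancreas, and the membrane protease Mmp14, at 14.8 FPKM in neural tube against 40.7 in pancreas, were all higher in pancreas by less than the rule of size.

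Some members that are neighbours in the genome stood at different levels. Plxnb3 and Plxna3 lie 557 kb apart on chromosome X (mm9), at 0.0344 and 29.1 FPKM in neural tube against 0.274 and 6.002 FPKM in pancreas. Sema3b and Sema3f on chromosome 9 were at 0.710 and 18.0 FPKM in neural tube against 2.35 and 13.3 FPKM in pancreas.

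Set against all 23228 genes within its own sample, the median member stood at percentile 68.7 in neural tube and 61.2 in pancreas. For class A plexins the median percentile was 89.4 in neural tube and 63.4 in pancreas, and for class 3 semaphorins it was 44.9 in neural tube and 56.6 in pancreas. Plxnd1 stood at percentile 59.9 in neural tube and 83.5 in pancreas. These ranks do not change with rescaling.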
